A study of Canis lupus familiaris with 6 samples.

Results

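The miR-106b/miR-93/miR-25 cluster is a group of 3 miRNAs, cfa-miR-106b, cfa-miR-93 and cfa-miR-25 in the dog. They were picked by name from the 289 canine miRNAs on an Agilent microarray and took up 6 of its 656 probes. The study measured miRNAs in canine mammary cancer cell lines, stained with an antibody to Sca1 (stem cell antigen 1) and sorted on it. The Sca1+ cells, which the labels call cancer stem cells, were set against the Sca1- cells, which the labels call the control. CMT-U27, CMT-U309 and P114 each gave both fractions, which made 3 Sca1+ and 3 Sca1- samples and 1 array per sample. All lines are labelled as grown in the same serum-supplemented medium, and none carries a labelled mutation or drug. The descriptions of both P114 samples speak of growth with macrophages and those of the other 4 of growth alone, while titles and sources do not mention macrophages. Biological replicates is the labels' term, but separate cultures are not mentioned, so a p-value here covers only the spread among these samples. That spread can hold differences between lines as well as technical ones, which cannot be told apart.

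The 3 miRNAs are cut from a transcript of MCM7, a gene for a subunit of the helicase that opens DNA at replication forks, and both the gene and its miRNAs are targets of E2F transcription factors. miR-106b and miR-93 share their seed, the bases by which a miRNA finds its targets, with miR-17 and miR-20a and are known to repress the cell cycle inhibitor p21. miR-25 shares its seed with miR-92a and is known to repress the pro-apoptotic protein BIM. The cluster is a paralogue of the cluster that runs from miR-17 to miR-92a and of that of miR-106a and miR-363, and is often abundant in proliferating cells and in carcinomas.

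Each member was read by a shorter and a longer probe, and the sequences show how much of each miRNA the array could read. The probes below are written 5′ to 3′ as DNA, and the capital marks the base by which the longer probe extends the shorter one.
miR-106b probe: atctgcactgtcagcaC
miR-93 probe: ctacctgcacgaacaG
miR-25 probe: tcagaccgagacaagtgC
The reverse complements of these probes, written as RNA 5′ to 3′, are the stretches of the miRNAs that pair with them.
miR-106b stretch: gugcugacagugcagau
miR-93 stretch: cuguucgugcagguag
miR-25 stretch: gcacuugucucggucuga
Relatives with probes of their own were the nearest in sequence, which bears on how far the members can be read apart from them. They are shown as the stretches their longest probes pair with, and capitals mark bases that do not match the member, ends without a partner included, with stretches aligned at their 3′ ends, shifts of up to 2 bases allowed and no gaps.
miR-20a against miR-106b: gugcuUaUagugcagGuAG
miR-106a against miR-106b: gcuUacagugcagGuAG
miR-20a against miR-93: GUGcuUAuAgugcagguag
miR-106a against miR-93: GcuUACAgugcagguag
miR-92a against miR-25: acuugucCcggCcugU

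The stretch of miR-106b matched that of miR-20a at 14 of 17 bases and that of miR-106a at 13 of 15. It also matched miR-20b at 13 of 15 bases and miR-18a at 13 of 17, which are not shown above. The stretch of miR-93 matched miR-20a at 13 of 16 bases and miR-106a at 12 of 16, and that of miR-25 matched miR-92a at 13 of 16. Within the cluster, miR-106b and miR-93 matched at 10 of 14 bases, miR-106b and miR-25 at 5 of 15 and miR-93 and miR-25 at 6 of 16. Over all 41616 pairs of miRNAs on the array the median was 6 matching bases and the 99th percentile 10. Reads of 1 relative by the probe of another were not tested.

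The array annotation places the 3 probe targets close together on chromosome 6 of canFam2. It gives chr6:12505315-12505330 for the longer miR-106b probe, chr6:12505540-12505554 for that of miR-93 and chr6:12505787-12505803 for that of miR-25. Each interval is 1 base shorter than its probe, at 16, 15 and 17 bases. The interval ends lie 224 bases apart from miR-106b to miR-93 and 249 bases apart from miR-93 to miR-25. In the RefSeq annotation of a later dog assembly, the genes MIR106B, MIR93 and MIR25 all lie within the bounds of MCM7 on chromosome 6.

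The brightness and the labelling of the arrays bear on every value of the cluster. Detected miRNAs numbered 89 to 111 on 3 bright arrays (B1 to B3) and 9 to 39 on 3 dim ones (D1 to D3), with summed signals of detected miRNAs of 69282 to 70794 and 319.5 to 3228 intensity units. The scanner files and the deposited value table give 4 of the 6 arrays to different samples. By the scanner files, D1 and D2 are CMT-U27 Sca1+ and Sca1-, B1 and B2 are CMT-U309 Sca1+ and Sca1-, and D3 and B3 are P114 Sca1+ and Sca1-. By the value table, D1 and B2 are CMT-U27 Sca1+ and Sca1-, D2 and D3 are CMT-U309 Sca1+ and Sca1-, and B1 and B3 are P114 Sca1+ and Sca1-. Both readings make D1 and B1 Sca1+ and B2 and B3 Sca1-, so only D2 and D3 change fraction. D1 and B1 lie in row 1 of the slide and B2 and B3 in row 2, so on these 4 arrays fraction and slide row cannot be told apart. In the value-table reading all Sca1+ arrays lie in row 1, all Sca1- arrays in row 2, and each line fills 1 slide column. There fraction and row, and line and column, cannot be told apart on any array. Neither holds in the scanner-file reading, and which reading is right was not tested.

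Each of the 3 members was detected on every bright array and on D1, but neither on D2 nor on D3. This combination held for 21 of 289 miRNAs, or 7.27%, and 165 of the 289 were detected on no array. The 21 are among 37 miRNAs detected on all bright arrays and on D1. miR-106b had a total gene signal, the scanner software's signal of a miRNA over its probes, of 766 ± 57.6 intensity units (± the software's gene error) on B1. It read 337 ± 26.8 and 316 ± 24.6 units on B2 and B3, and 41.7 ± 5.67 on D1. It was brightest on B1, close to equal on B2 and B3, and low on D1. The signal of miR-93 was 489 ± 41.3 on B1, 296 ± 26.5 and 222 ± 19.97 on B2 and B3, and 20.4 ± 3.90 on D1. It had the same order of arrays, with B2 further above B3. The signal of miR-25 was 290.5 ± 22.7 on B1, 141.3 ± 13.4 and 115 ± 10.8 on B2 and B3, and 12.4 ± 3.54 on D1. The totals sum both probes of a member on the bright arrays, and for miR-106b on D1 too, while those of miR-93 and miR-25 on D1 equal the longer probe alone. On D1 the gene error came to 13.6% of the signal for miR-106b, 19.1% for miR-93 and 28.4% for miR-25, so D1 carries the least precise of the measured values.

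**Figure D1:**
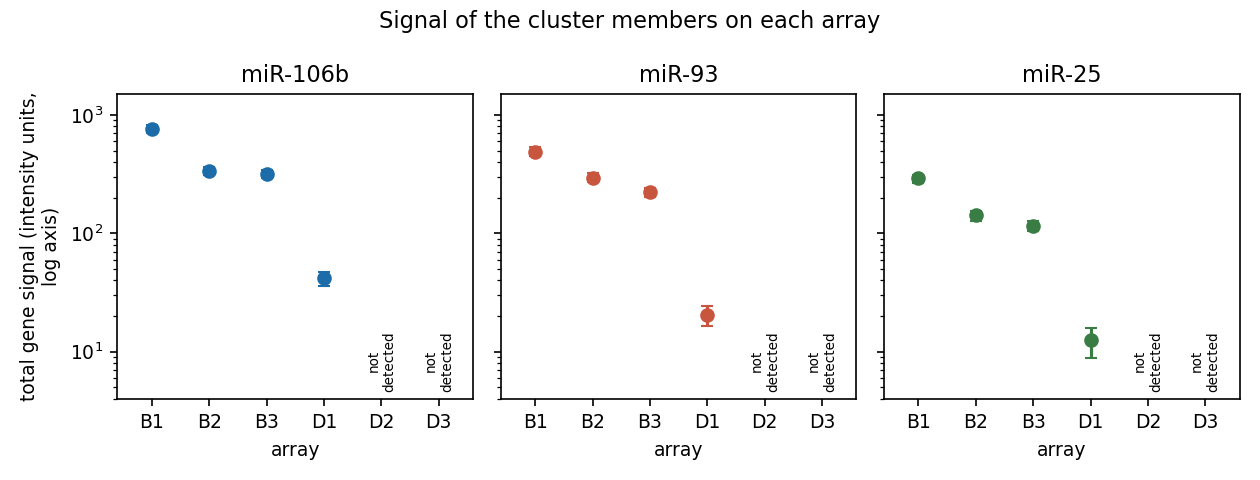
Total gene signal (intensity units, log axis) of miR-106b, miR-93 and miR-25 on each of the 6 arrays, 1 point per array, with bars for the scanner software's gene error. All 3 members are highest on B1, at 766, 489 and 290.5 units, and were not detected on D2 and D3.

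B1 exceeded B2 by 2.27-fold for miR-106b, 1.65-fold for miR-93 and 2.06-fold for miR-25 in unscaled signal. Against B3 the folds were 2.42, 2.20 and 2.52. The summed signal of B1 was 0.979 times that of B2 and 0.987 times that of B3, so these 3 arrays were about equally bright. All 3 members exceeded 1.5 times both other bright arrays on B1, as did 32 of the 78 miRNAs detected on all bright arrays (41.0%). B2 exceeded B3 by 1.07-fold for miR-106b, 1.33-fold for miR-93 and 1.22-fold for miR-25. For miR-106b that gap is smaller than the gene error of either array.

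The probes and spots behind these signals gave close values on the bright arrays. All 360 member spots there were well above background, none was saturated, and the spots of a probe varied by 4.72% to 11.1% (CV, median 7.24%). The longer probe of miR-106b read 380 ± 24.5 on B1, 173 ± 11.1 and 157 ± 7.40 on B2 and B3, and 22.5 ± 1.84 on D1 (processed signal, mean ± SD over spots). Its shorter probe read 184.6 ± 9.37, 77.8 ± 6.32 and 73.7 ± 5.34 on B1, B2 and B3, and only 2 of its 20 spots stood well above background on D1. Both probes placed B1 above B2 and B3. By the shorter probe B1 exceeded B2 by 2.37-fold and B3 by 2.51-fold, and by the longer probe by 2.20-fold and 2.42-fold.

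The probes of miR-93 differed most in how strongly they read. Its longer probe read 295 ± 18.6 on B1, 184 ± 9.91 and 136 ± 8.08 on B2 and B3, and 15.4 ± 2.90 on D1, where 18 of 20 spots were well above background. Its shorter probe read 66.0 ± 6.44, 35.6 ± 2.57 and 25.7 ± 2.87 on the bright arrays, with no spot of 20 well above background on D1. The longer probe exceeded the shorter by 4.47-fold on B1, 5.18-fold on B2 and 5.29-fold on B3. B1 exceeded B2 by 1.85-fold and B3 by 2.57-fold by the shorter probe and by 1.60-fold and 2.16-fold by the longer one, so the probes shared the order but not the size.

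The longer probe of miR-25 read 149 ± 11.9 on B1, 72.6 ± 6.69 on B2 and 60.1 ± 5.84 on B3. On D1 it read 9.38, with 2 of 20 spots well above background, and its shorter probe had 1 of 20, so most of the spots behind the call of miR-25 as detected on D1 were not well above background one by one. By the shorter probe B1 exceeded B2 by 2.01-fold and B3 by 2.72-fold, and by the longer by 2.05-fold and 2.47-fold. On D2 the longer miR-106b probe and the shorter miR-25 probe each had 1 spot of 20 well above background, and the other member probes on D2 and D3 had none. The brightest spot of each of these probes on D2, and of the shorter miR-25 probe on D1, was an outlier spot left out of the values.

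**Figure D2:**
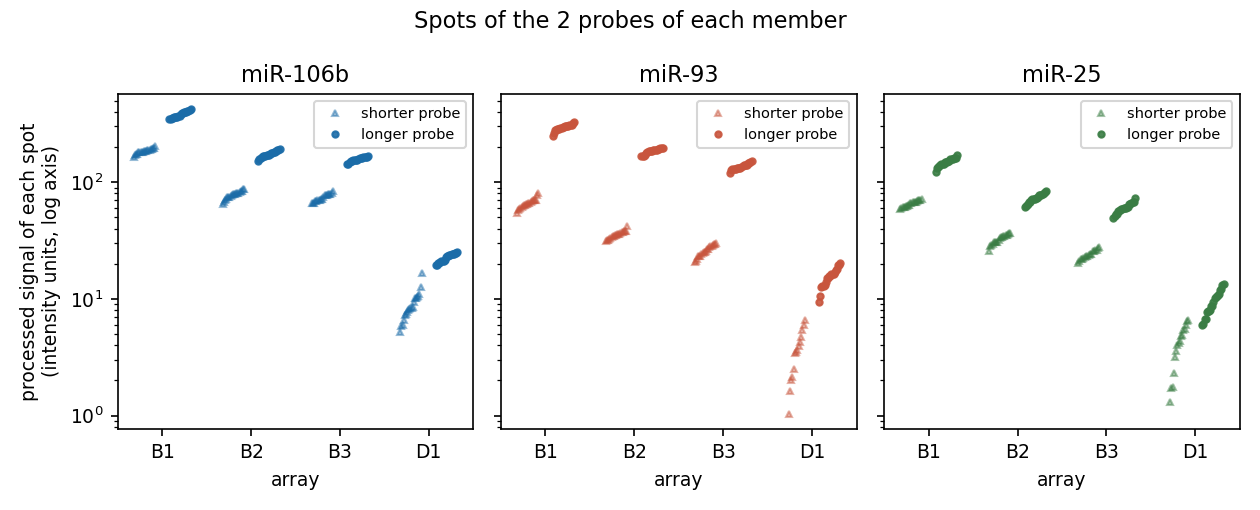
Processed signal of each spot (intensity units, log axis) for the shorter and the longer probe of each member on B1, B2, B3 and D1, spots of a probe sorted by signal and outlier spots left out; 7 spots at or below 1 unit are not drawn. Spots of a probe stay close together on the bright arrays, with CVs of 4.72% to 11.1%, and both probes of each member are highest on B1.

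To set the bright arrays against each other for all miRNAs, intensities were scaled by the 75th percentile of probes well above background, and B1 (Sca1+) was compared with B2 and B3 (Sca1-) with limma. Of 90 miRNAs tested, 4 passed an adjusted p of 0.05 (4.44%), all lower in B1, none passed as higher (0%), and 23 had an unadjusted p under 0.05. No member passed. miR-106b was 0.88 higher in B1 on the log2 scale (SE 0.30, 1.85-fold, limma adjusted p = 0.191). miR-25 was 0.85 higher (SE 0.28, 1.80-fold, limma adjusted p = 0.190). miR-93 was 0.57 higher (SE 0.28, 1.49-fold, limma adjusted p = 0.306). With 1 Sca1+ array and 1 residual degree of freedom, the Sca1+ side has no spread of its own. The spread is that of the Sca1- pair, which limma drew towards a value common to all 90 miRNAs tested.

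After scaling B1 stayed the highest of the bright arrays for each member. B1 stood 1.00 above B2 and 0.77 above B3 for miR-106b, 0.54 and 0.61 for miR-93, and 0.90 and 0.80 for miR-25, all on the log2 scale. B2 and B3 differed by less, at -0.23, 0.07 and -0.10 for B2 minus B3, so B3 lay above B2 for miR-106b and miR-25, the reverse of their unscaled signals. B1 stood above both for all 3 members and for 46 of the 90 miRNAs tested (51.1%). By the size of the difference miR-106b ranked 15, miR-25 ranked 16 and miR-93 ranked 26 of 90. The median over all 90 was 0.18, and miR-106b, miR-93 and miR-25 lay 0.71, 0.40 and 0.68 above it.

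With the normexp background correction in place of the scanner's, miR-106b (0.62, limma adjusted p = 0.0403) and miR-25 (0.73, limma adjusted p = 0.0181) passed and miR-93 (0.43, limma adjusted p = 0.161) did not. There 43 of 90 miRNAs were called higher in B1 (47.8%) and 11 lower, and the median of all tested was 0.55. miR-106b then lay 0.07 above that median, miR-25 0.18 above it and miR-93 0.12 below it (-0.12). Over all settings the difference ranged from 0.43 to 1.25 for miR-106b, from 0.12 to 0.96 for miR-93 and from 0.39 to 1.21 for miR-25, and the adjusted p from 0.0403 to 0.895, 0.127 to 0.982 and 0.0181 to 0.922.

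**Figure D3:**
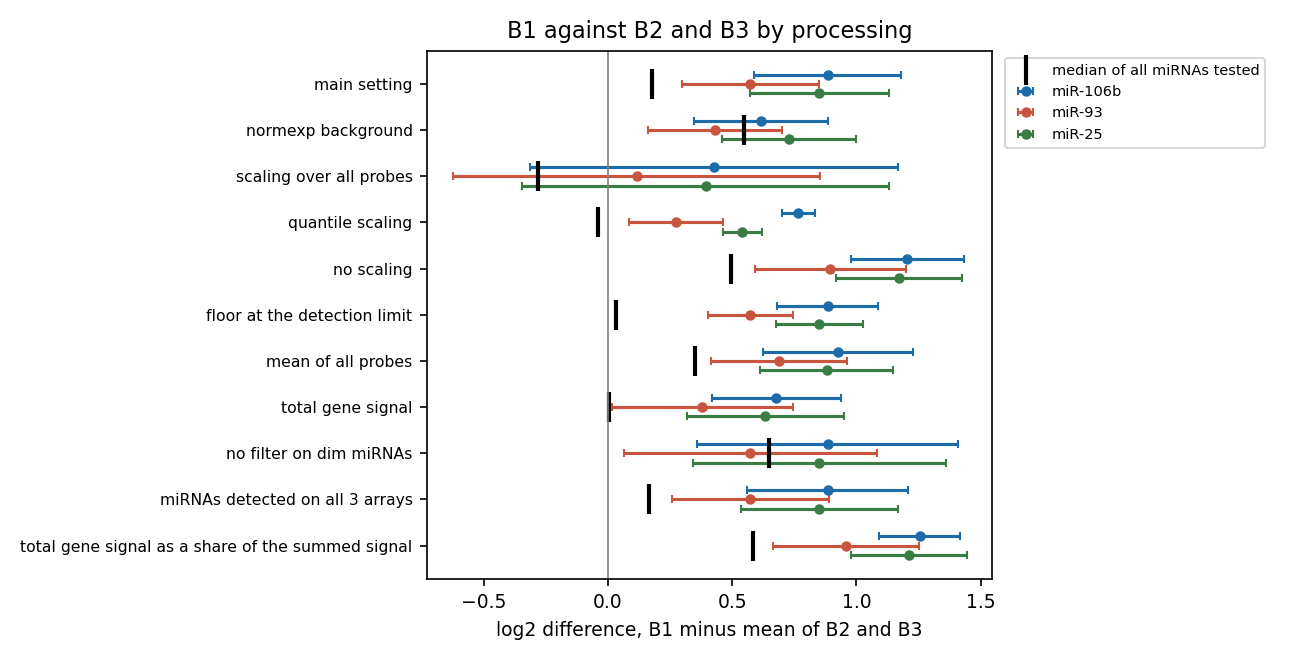
Log2 difference of B1 from the mean of B2 and B3 for each member under each processing setting, with limma standard errors as bars and a black tick at the median of all miRNAs tested. All 3 members lie above 0 in each setting, and the tick moves with the setting, to 0.55 under normexp background correction.

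Marker miRNAs of cell types differed between B1 and the other bright arrays, in differing directions. Of 7 epithelial miRNAs, 5 were detected on B1 with a summed signal of 5129 units, led by miR-141 at 2839 and miR-200c at 1427, against 1 on B2 (28.9 units), 1 on D2 (miR-141, 23.9 units) and none on B3, D1 or D3; miR-200a and miR-200b were detected nowhere. Of 5 leukocyte and macrophage miRNAs, 3 were detected on B1 (948 units, 689.7 of them miR-146a), 2 on B2 (219 units) and 2 on B3 (149 units). Each dim array detected 1, miR-223 (59.6 to 65.7 units), and miR-142 and miR-150 were detected nowhere. miR-223 read 69.5 to 80.9 units on the bright arrays, so it did not follow the brightness of the arrays. Whether its signal comes from such cells was not tested. Of 5 mesenchymal miRNAs, miR-140 was detected on B1 (19.9 units), miR-140 and miR-199 on B2 (635 units) and B3 (623 units), and none on the dim arrays. miR-143, miR-145 and miR-214 were detected nowhere. Of the 2 erythroid miRNAs, miR-451 was detected on B2 (18.1 units) and D2 (39.4 units) and miR-144 nowhere. The link of these markers to the difference of the cluster was not tested. In sorted bulk RNA, fewer cells of a type and less RNA per cell cannot be told apart.

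D1 is the other array whose Sca1+ label is shared by both readings, and its summed signal was 21.5-fold below that of B1. As a share of the summed signal of detected miRNAs, miR-106b made up 1.11% on B1, 1.29% on D1, 0.477% on B2 and 0.450% on B3. miR-93 made up 0.706% on B1, 0.633% on D1, 0.418% on B2 and 0.316% on B3. miR-25 made up 0.419%, 0.386%, 0.200% and 0.164% in the same order. In each case both Sca1+ arrays lay above both Sca1- arrays, as for 14 of the 37 miRNAs measured on these arrays (37.8%), and the median log2 difference of the 37 was 0.57. The D1 shares of miR-93 and miR-25 hold 1 probe and the others 2. Together the 3 members made up 2.23% on B1, 2.31% on D1, 1.09% on B2 and 0.931% on B3. D1 had 39 detected miRNAs in its sum against 89 to 111 on the bright arrays.

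**Figure D4:**
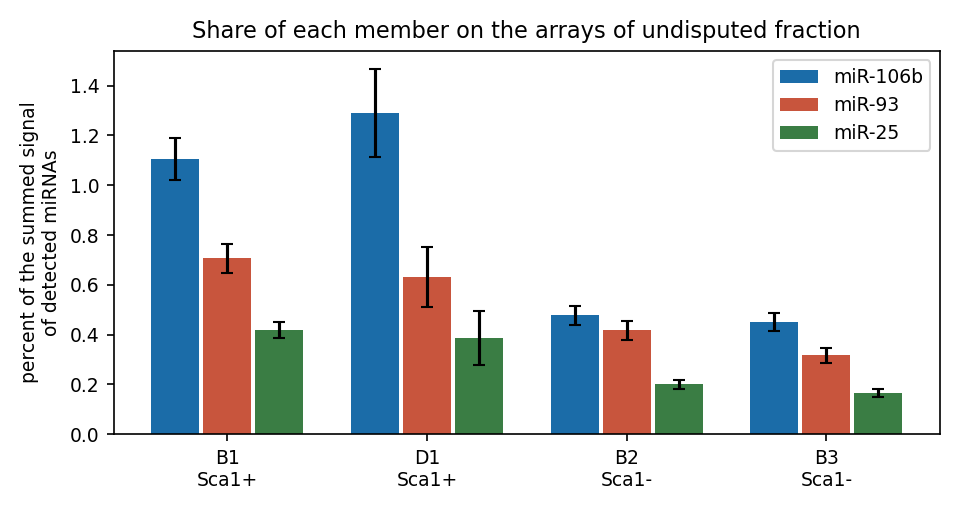
Share of each member in the summed signal of detected miRNAs (percent, axis from 0) on the 4 arrays whose fraction both readings share, with bars for the scanner software's gene error on the same scale. For each member the bars of B1 and D1 are above those of B2 and B3, as for miR-106b at 1.11% and 1.29% against 0.477% and 0.450%, and 14 of 37 miRNAs (37.8%) show this order.

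A comparison of D1 and B1 with B2 and B3 was added after the data were seen and scaled over probes measured on these 4 arrays. The scaled log2 values of miR-106b were -1.17 on D1, -1.19 on B1, -2.22 on B2 and -2.22 on B3. Those of miR-93 were -1.74, -1.56, -2.13 and -2.43, and those of miR-25 were -2.47, -2.55, -3.48 and -3.61. No member's Sca1+ values overlapped its Sca1- values, which also held for 12 of the 37 miRNAs tested (32.4%). It held for 2 of the 3 members with scaling over all probes (3 of 37 miRNAs), quantile scaling (6 of 37) and the mean of all probes (11 of 37), and for 0 members and 0 of 37 miRNAs without scaling. The Sca1+ arrays were higher by 1.04 for miR-106b (SE 0.21, limma adjusted p = 0.220), by 1.04 for miR-25 (SE 0.21, limma adjusted p = 0.220) and by 0.63 for miR-93 (SE 0.25, limma adjusted p = 0.274). limma called 0 of 37 miRNAs (0%), with 6 at an unadjusted p under 0.05, and the median over all 37 was 0.23.

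The calls of this comparison turned on single arrays. Without B1, D1 alone stood for Sca1+ and had no spread of its own. The differences were then 1.05 for miR-106b, 1.08 for miR-25 and 0.54 for miR-93. That fit gave the most calls, most of them other miRNAs but miR-106b and miR-25 among them, and the lowest adjusted p of both. Without D1, 3 were called and no member passed, and without B2 or B3 none was called. Over all settings the adjusted p ran from 0.0257 to 0.993 for miR-106b, from 0.0769 to 0.993 for miR-93 and from 0.0259 to 0.993 for miR-25. Without any scaling the direction turned, to -0.84 for miR-106b, -1.25 for miR-93 and -0.84 for miR-25, with the median of all tested at -1.65.

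Over all 6 arrays, with the line as a term and samples taken from the scanner files, no difference between Sca1+ and Sca1- cells was detectable. limma called 0 of 80 miRNAs (0%), with 0 at an unadjusted p under 0.05 as well. miR-106b was at -1.71 (SE 2.12), miR-93 at -0.05 (SE 2.75) and miR-25 at -0.30 (SE 2.07) for Sca1+ minus Sca1- on the log2 scale, each with a limma adjusted p of 0.995, against a median of -0.81 over all 80. These values rest in part on D2 and D3, where no member was detected, so their size is not measured. With samples taken from the value table limma again called 0 of 80 (0%), with 3 at an unadjusted p under 0.05, and the values were 2.04 for miR-106b, -0.17 for miR-93 and 0.63 for miR-25, each with a limma adjusted p of 0.792 or above.

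Within single lines the cluster could be compared only where both arrays detected it, and with 1 pair there is no test. By the scanner files that left CMT-U309, where B1 minus B2 was 0.44 for miR-106b, -0.02 for miR-93 and 0.34 for miR-25 under the scaling over 6 arrays. Under the scaling over the bright arrays the same pair gave 1.00, 0.54 and 0.90, so miR-93 changed sign and the other members moved by over 1.5 times. In CMT-U27 the members were detected in the Sca1+ sample alone, and in P114 in the Sca1- sample alone. By the value table, P114 Sca1+ was higher than Sca1- by 0.74, 0.58 and 0.77, CMT-U27 Sca1+ minus Sca1- was -0.24, -0.90 and -0.28, and in CMT-U309 no member was detected in either fraction. D1 minus B2, the CMT-U27 pair of that reading, changed sign with the scaling, since on the scaling over 4 arrays D1 lay above B2 for all 3 members.

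Differences between the 3 lines followed the reading of the arrays. By the scanner files limma's F test called 0 of 80 miRNAs (0%), with 4 at an unadjusted p under 0.05, and the adjusted p was 0.888 for miR-106b, 0.888 for miR-93 and 0.901 for miR-25. Without the P114 Sca1+ array D3, 7 miRNAs were called and no member. By the value table it called 14 of 80 (17.5%), among them miR-93 (limma adjusted p = 0.0303), while miR-25 (0.0986) and miR-106b (0.275) did not pass. In that reading both CMT-U309 samples are the dim arrays D2 and D3, so for miR-93 line and array brightness cannot be told apart. No fold is given, since the bounds against these arrays, 0.151 to 0.416, fell under 1.

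The relatives of the cluster were described as a list of 13 miRNAs that share a seed with a member or lie in a paralogous cluster. Of these, B1 and B3 detected 7 each, B2 detected 8, D1 detected 4, and D2 and D3 detected none. miR-92b was detected on B2 alone (9.13 units), and miR-18b, miR-20b, miR-32, miR-363 and miR-367 on no array. In B1 against B2 and B3, 7 were tested, 4 lay above 0 and 3 below, none was called, and their median was 0.15 beside 0.18 over all 90. Without scaling all 7 lay above 0, with a median of 0.47 beside 0.50.

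The relatives that share the seed of miR-106b and miR-93 lay near 0 in that comparison. miR-20a, which like miR-106b belongs to the miR-17 family, had signals of 775 units on B1, 820 and 527.6 on B2 and B3, and 78.4 on D1. Its order was B2, B1, B3, unlike that of the members, and its difference was -0.05. miR-106a read 399, 417, 269 and 35.6 units on the same arrays and differed by -0.12. miR-17 read 48.1, 42.1 and 39.96 units on the bright arrays, was not detected on D1 and differed by -0.09. Unlike those of miR-20a and miR-106a, its stretch was not among the 6 nearest to miR-106b or to miR-93. Whether its probe reads the miRNA that holds the seed of miR-106b and miR-93 was not tested. miR-92a, which shares the seed of miR-25, read 273, 225, 166 and 26.3 units and differed by 0.15.

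The relatives with other seeds, of the miR-18 and miR-19 families, had larger values. miR-19a read 791, 430, 375 and 67.9 units on B1, B2, B3 and D1 and differed by 0.63. miR-19b read 147, 72.7 and 49.7 units on the bright arrays and differed by 0.97, and miR-18a read 143.8, 85.8 and 58.5 units and differed by 0.51. Each was highest on B1, and none passed limma's adjusted threshold. The difference between a member and a relative was itself not tested. On the 4 arrays of shared fraction 4 relatives were tested, and none was called. Sca1+ minus Sca1- was 1.06 for miR-19a, 0.92 for miR-92a, 0.53 for miR-20a and 0.42 for miR-106a. Their median was 0.73 beside 0.23 over all 37. For miR-19a and miR-92a both Sca1+ values lay above both Sca1- values. That is 2 of the 4 relatives, beside 12 of the 37 miRNAs tested (32.4%).

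**Figure D5:**
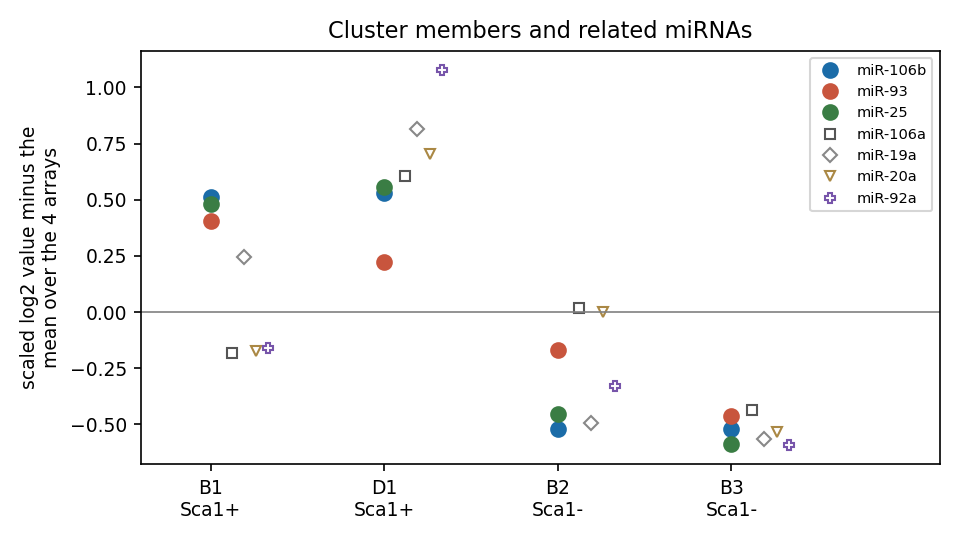
Scaled log2 value of the 3 members and of the 4 relatives measured on all 4 arrays of shared fraction, each minus its own mean over these arrays. The members and miR-19a lie above 0 on B1 and D1 and below 0 on B2 and B3. miR-20a, miR-106a and miR-92a lie below 0 on B1.

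By the value-table line test, 4 of the 7 relatives tested were called (miR-17, miR-18a, miR-106a and miR-92a), beside 14 of 80 miRNAs (17.5%), and by the scanner files none of 7. In the value-table reading CMT-U309 is the dim arrays D2 and D3, where no relative was detected. Over all 6 arrays by the scanner files, 1 of the 7 lay above 0 and 6 below for Sca1+ minus Sca1-, with a median of -0.27 beside -0.81 over all 80. None of them was called.

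Likeness of pattern was described over the 4 arrays on which the members were detected, as the root mean square difference of values centred per miRNA, on the log2 scale. miR-106b and miR-25 were the closest pair of members, at 0.0505, with miR-93 at 0.241 from miR-106b and 0.230 from miR-25. The longer miR-25 probe had 2 of 20 spots well above background on D1, where the gene error was 28.4% of the signal. Distances that hold miR-25 are therefore less precise than their digits. Of 34 other miRNAs detected on these arrays, miR-107 (0.134), miR-19a (0.195) and let-7g (0.258) were nearest to miR-106b. let-7g (0.101), miR-130a (0.128) and miR-107 (0.145) were nearest to miR-93, and all 3 were closer to it than the other members. miR-107 (0.147), miR-19a (0.176) and miR-130a (0.262) were nearest to miR-25. The medians over the 34 were 0.711 for miR-106b, 0.599 for miR-93 and 0.718 for miR-25, and these points share 4 arrays and 1 scaling.

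The longer probes of the members also show how their ratios moved from array to array. The log2 ratio of miR-106b to miR-25 was 1.35 on B1, 1.25 on B2, 1.38 on B3 and 1.26 on D1. That of miR-93 to miR-25 was 0.99, 1.34, 1.18 and 0.72. That of miR-106b to miR-93 was 0.37, -0.09, 0.20 and 0.55. The first ratio moved less than those that hold miR-93, though the D1 signal of miR-25 had a gene error of 28.4%. Since each ratio holds different probes, its change between arrays can be read and its size cannot.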

How the data were processed

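The files are scanner output of 6 one-colour Agilent miRNA arrays from 1 slide and 1 scan. The deposited intensity values were extracted with Agilent Feature Extraction 10.10.1.1 per the file headers (the submitters' processing notes give 10.7.3.1). The labels name Cy5, while the files hold 1 green channel. Processed intensities were floored at each array's lowest positive value, taken to log2, averaged over the 20 spots of a probe without outlier spots, and scaled by the 75th percentile of probes well above background (at least 50% of spots) on every array used. The brightest probe stood for a miRNA. miRNAs detected on at least 3 of 6, 2 of 3 bright or all 4 arrays of shared fraction were tested with limma 3.58.1 in R 4.3.3 with Benjamini-Hochberg adjustment and a threshold of 0.05. In the main setting the 6-array fits had 2 residual degrees of freedom and held line and fraction as terms, since both fractions came from each line. The line was the replicate block of the Sca1 test and the tested term of the line test. The fits on the bright arrays and on the 4 arrays of shared fraction had no such block, so pairing by line was ignored there. Deviations of paired samples from their fraction's mean correlated at -0.16 in CMT-U27, 0.58 in CMT-U309 and -0.54 in P114 over 80 miRNAs, by the scanner files.

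The deposited value table holds 311 features and was set against total gene signals (relative tolerance 1e-04), where 2 columns equalled their own sample's scanner file and 4 another's. Arrays with over 50 detected miRNAs were called bright. The scaling used 10 probes over 6 arrays, none of a member, 122 over the bright arrays, 6 of them of members, and 42 over the 4, 2 of them of members. The normexp offset was 50. The number of arrays limits the precision. Members, relatives, marker lists and tests were chosen with earlier results of these data known; neighbours are the 3 nearest miRNAs by pattern.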

Additional observations from a re-analysis of the deposited data

Results flagged for a closer look

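In the value-table reading, the members of the cluster moved in opposite directions in 2 lines under the scaling over 6 arrays. In CMT-U27, Sca1+ minus Sca1- (D1 minus B2) was -0.24 for miR-106b, -0.90 for miR-93 and -0.28 for miR-25 on the log2 scale. In P114 (B1 minus B3) it was 0.74 for miR-106b, 0.58 for miR-93 and 0.77 for miR-25. Each line has 1 pair, and the difference between the lines was not tested. Under the scaling over the 4 arrays of shared fraction D1 lay above B2 for all 3 members.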

How the results depend on the processing

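Sca1+ minus Sca1- over 6 arrays changed sign for miR-106b, miR-93 and miR-25 with normexp (0.55, 0.47 and 0.80), with values floored at the detection limit (0.46, 0.20 and 0.62) and with total gene signal (0.53, 0.21 and 0.39). It also changed for miR-93 and miR-25 with scaling over all probes (0.40 and 0.14), for miR-25 with the mean of all probes (0.066), and for miR-106b and miR-25 with samples from the value table (2.04 and 0.63). Leaving out 1 array gave -2.91 to 0.65, -3.28 to 3.28 and -1.96 to 1.76. No alternative gave a Sca1 call. Without the line as replicate block the values were -1.71, -0.05 and -0.30 and no call changed. The line test called 1 miRNA with total gene signal, 14 with the value table (miR-93 at an adjusted p of 0.0303) and 0 to 7 without 1 array.

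Against B2 and B3, miRNAs called in B1 numbered 54 with normexp, 11 with scaling over all probes, 10 with the floor, 8 when detected on all 3 arrays, 2 with the mean of probes, and 0 with quantile scaling, with no filter and as a share of the summed signal. miR-106b (0.62) and miR-25 (0.73) passed with normexp. Without B2 or B3 the differences were 0.79 to 0.83 for miR-106b, 0.33 to 0.66 for miR-93 and 0.69 to 0.86 for miR-25. On the 4 arrays of shared fraction, no scaling gave -0.84, -1.25 and -0.84, and leaving out 1 array gave 0 to 17 calls and 0.88 to 1.05, 0.48 to 0.78 and 0.85 to 1.104. The causes were not tested. Dim arrays limit depth: D2 and D3 give bounds only.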
